A study of Sus scrofa domesticus with 150 samples.

Results

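Macrophage identity genes are genes whose transcripts mark macrophages among the cells of a tissue. A set of 10 was followed here through the healing of skin wounds in pigs, namely CD14, MARCO, CD163, MRC1, CSF1R, CD68, GPNMB, C1QA, C1QB and APOE. The members were picked by symbol from the 30461 genes of the count table, with earlier results of these data known. The 10 symbols were carried by 11 rows, because CD68 stands on 2 rows.

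Wounded skin draws monocytes from the blood, and these become macrophages beside those that already live in the dermis. Early wound macrophages take up bacteria and dead cells and make inflammatory mediators, and later ones clear debris and matrix while new tissue forms. The 10 genes cover several of these tasks. CD14, MARCO, CD163 and MRC1 encode surface receptors for microbes and debris, and CSF1R the receptor of the macrophage growth factors. CD68 and GPNMB encode membrane proteins of lysosomes, C1QA and C1QB chains of the complement protein C1q, and APOE a lipid carrier. Several are also made by other cells, such as APOE by adipocytes and GPNMB by melanocytes.

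The animals were 6 female domestic pigs of a Yorkshire mix that weighed 45 to 50 kg, and their age was not given in the sources used here. Each received 12 circular full-thickness excision wounds of 2 cm diameter on the back, covered with a layered dressing and given no other treatment than a topical antibiotic at biopsy sites. The tissue excised on day 0 gave 6 skin samples, 1 per animal, and each of 72 wounds gave 1 edge and 1 center sample on 1 of 14 days between day 1 and day 21. Every day was sampled in 3 of the 6 animals. The animals sampled on a day gave 2 wounds each on 10 of the days, but only 1 each on days 15, 16, 19 and 21. A biopsy holds all cells of its place, and in such bulk samples fewer cells of a type and less RNA per cell cannot be told apart.

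The samples held 13133379 to 24895572 counts each (median 17643938.5), and the median was 17455384 at the edge, 17883095 in the center and 18269295 in skin. Levels are given as log2(1 + CPM), where CPM is the gene's count per 1000000 counts of the sample. Edge and center were compared within each day by edgeR's quasi-likelihood test on the counts. For comparisons over time the days were joined into 7 rounds (1 and 2, 3 and 4, 5 and 6, 7 and 9, 11 and 13, 15 and 16, 19 and 21), each of which held all 6 animals once, and the counts of an animal were summed per location and round. A gene was called where the Benjamini-Hochberg adjusted p over all genes tested was below 0.05. An earlier look at these data named 7 samples that stand apart from their replicates (day 2 center 2, day 3 center 4, day 3 edge 6, day 5 edge 6, day 6 center 5, day 9 center 5 and day 11 center 1). Without them 51 of the 51 edge against center calls, 115 of the 115 calls against skin and 31 of the 31 calls over time that are described here were kept.

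The table names the gene of each row on unplaced contigs of a pig assembly whose build is not given in the sources used here. CD14 (ENSSSCG00025051762) lies on LUXX01073274.1 from 2460310 to 2463538, MARCO (ENSSSCG00025038717) on LUXX01071922.1 from 1453937 to 1491721, and CD163 (ENSSSCG00025016573) on LUXX01006132.1 from 2191851 to 2226058. MRC1 (ENSSSCG00025027355) lies on LUXX01027233.1 from 339121 to 459355, CSF1R (ENSSSCG00025064220) on LUXX01078624.1 from 4267389 to 4313891, and GPNMB (ENSSSCG00025026140) on LUXX01026687.1 from 147560 to 181446. APOE (ENSSSCG00025056563) lies on LUXX01083703.1 from 1420766 to 1423809. C1QB (ENSSSCG00025027715, 8113464 to 8119641) and C1QA (ENSSSCG00025027898, 8131726 to 8134648) share LUXX01034745.1 and the minus strand, with C1QC (ENSSSCG00025027850, 8123474 to 8128453), the gene of the remaining C1q chain, between them. CD68 was read from ENSSSCG00025069337 on LUXX01062832.1 from 621586 to 624500, which held 210413 counts over the 150 samples. The other CD68 row, ENSSSCG00025051044 on LUXX01088536.1 from 4451402 to 4455363, held 25458 counts, between 3 and 1323 per sample. CD163, CD68, CSF1R and GPNMB were named by the protein match in the description column and the others by the name column. Counts were above 0 in all 150 samples for 9 of the 10 genes and in 146 for MARCO.

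Levels can be compared between genes only per length, and the deposited FPKM values give such an order. In skin the median was highest for APOE with 411 FPKM and GPNMB with 171 FPKM, followed by C1QA with 44.4 FPKM, C1QB with 17.1 FPKM, CSF1R with 16.7 FPKM and CD68 with 9.89 FPKM. CD14 had 8.07 FPKM, MRC1 6.38 FPKM and CD163 4.82 FPKM, and the median of MARCO was 0. The 6 skin samples of C1QB (11.1 to 21.6 FPKM) and CSF1R (10.9 to 24.4 FPKM) overlapped, as did those of CD68 (6.11 to 13.5 FPKM), CD14 (6.03 to 10.5 FPKM), MRC1 (3.01 to 8.72 FPKM) and CD163 (3.13 to 7.85 FPKM) among neighbours, while those of C1QA (25.3 to 59.5 FPKM) lay below GPNMB and above all lower genes.

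In the day 1 center the order was APOE (992 FPKM), GPNMB (134 FPKM), CD14 (116 FPKM), CSF1R (86.7 FPKM), C1QA (75.5 FPKM), CD163 (55.6 FPKM), CD68 (45.7 FPKM), C1QB (37.4 FPKM), MRC1 (23.7 FPKM) and MARCO (19.1 FPKM). CD14 thus stood well above its place in skin, though its range of 54.4 to 142 FPKM overlapped that of GPNMB (55.4 to 330 FPKM) and that of CSF1R (43.7 to 121 FPKM). In the day 13 center it was APOE (903 FPKM), GPNMB (605 FPKM), C1QA (245 FPKM), CD68 (121 FPKM), C1QB (101 FPKM), CD14 (78.5 FPKM), CSF1R (64.2 FPKM), CD163 (50.4 FPKM), MRC1 (23.7 FPKM) and MARCO (5.38 FPKM). By day 21 the center was again led by APOE (446 FPKM), GPNMB (237 FPKM), C1QA (129 FPKM) and C1QB (64.4 FPKM), while MARCO was down to 0.436 FPKM.

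**Figure D1:**
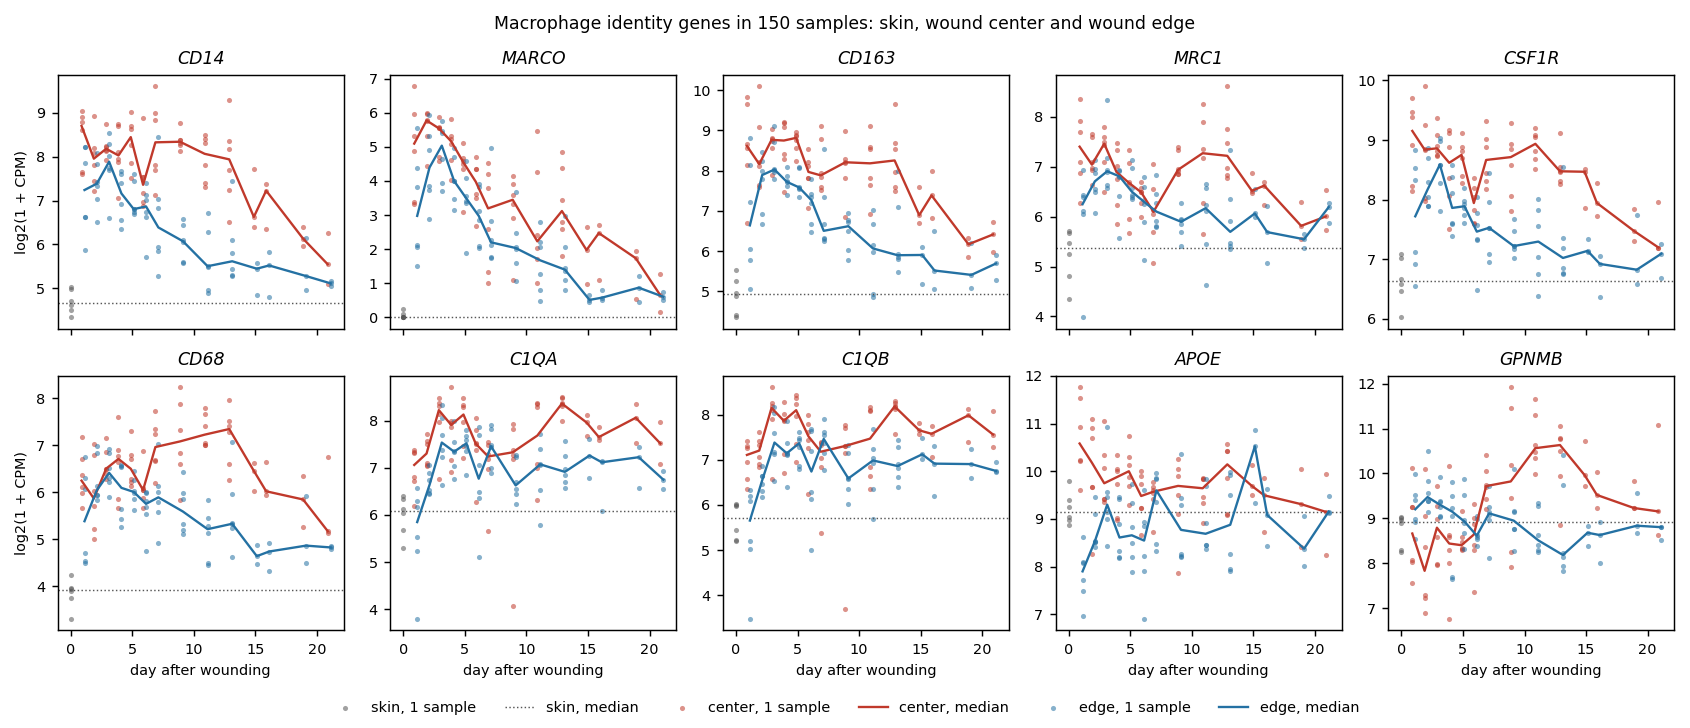
Level of each of the 10 genes, as log2(1 + CPM), against the day after wounding in 150 samples: grey points are skin samples, red points center samples and blue points edge samples, lines join the medians of a location and the dotted line is the skin median. MARCO falls from its day 2 and day 3 peaks towards the skin level, GPNMB and CD68 peak in the center on day 13, and the center line lies above the edge line for most genes and days.

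CD14, the coreceptor for bacterial lipopolysaccharide on monocytes and macrophages, rose at once and stayed high in the center until day 13. In the 6 skin samples its level had a lowest value of 4.33, a median of 4.66 and a highest value of 5.01 on the log2(1 + CPM) scale. In the center it was 7.61, 8.70 and 9.06 on day 1, 8.13, 8.34 and 8.77 on day 9, and 6.51, 7.94 and 9.29 on day 13, with 3 samples at 5.09, 6.27 and 5.54 on day 21. No center sample of days 1 to 13 was as low as a skin sample. At the edge the median peaked at 7.89 on day 3 (6.61 to 8.54) and had come down to 5.50 on day 11 (4.89 to 6.72), where the lowest sample lay within the skin range.

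MARCO, a scavenger receptor with a collagen-like stalk that binds bacteria, went furthest from its skin level. The 6 skin samples held 0, 0, 0, 4, 0 and 1 counts, 5 in 109493039 counts together. Its center level peaked on day 2, with a lowest value of 4.44, a median of 5.77 and a highest value of 5.99, and its edge level on day 3 with 3.71, 5.03 and 5.75. From there the median fell to 3.45 in the center and 2.03 at the edge on day 9, and to 0.64 and 0.60 on day 21, where single samples held between 2 and 24 counts. MARCO was the only one of the 10 genes whose highest center median fell on day 2.

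CD163, the receptor that clears haemoglobin bound to haptoglobin, followed a course close to that of CD14. Skin samples lay between 4.36 and 5.52 with a median of 4.93. The center medians were 8.62 on day 1 (6.71 to 9.84), 8.82 on day 5 (8.25 to 8.97) and 8.26 on day 13 (7.50 to 9.66), and 6.17 on day 19 with samples at 6.17, 6.33 and 5.86. Its edge median was highest on day 3 with 8.03 (7.79 to 9.10) and fell to 6.07 on day 11 (4.87 to 7.03).

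MRC1, the mannose receptor that takes up glycoproteins with exposed mannose, had smaller changes than CD14, MARCO and CD163. Skin samples lay between 4.35 and 5.72 with a median of 5.36. The center showed 2 high phases, with medians of 7.46 on day 3 (6.49 to 7.79) and 7.27 on day 11 (5.64 to 8.26), and a median of 6.10 between them on day 7 (5.07 to 7.06). The edge median peaked on day 3 with 6.91 (6.57 to 8.33) and lay between 5.55 and 6.19 from day 9 on.

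CSF1R, the receptor through which CSF1 and IL34 keep macrophages alive, had a skin median of 6.63 (6.03 to 7.09). Its center median stayed between 7.94 and 9.15 from day 1 to day 16 and fell to 7.48 on day 19 (samples at 7.84, 7.48 and 7.30) and 7.20 on day 21 (7.19, 7.96 and 7.20). The edge median was 7.72 on day 1 (6.55 to 8.83), peaked at 8.59 on day 3 (7.81 to 9.04) and lay between 6.82 and 7.53 from day 7 on.

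The genes of lysosome membranes peaked late in the center. CD68 (macrosialin), whose skin samples lay between 3.32 and 4.24, had center medians of 6.25 on day 1 (5.66 to 7.18), 7.08 on day 9 (5.84 to 8.23) and 7.34 on day 13 (6.27 to 7.97). Its edge median was highest on day 3 with 6.41 (5.91 to 6.92) and was 5.33 on day 13 (4.62 to 7.08). GPNMB, a glycoprotein of lysosomes and melanosomes, already stood at 8.92 in skin (8.25 to 9.03). In the center its median was below that value on days 1 to 6, with 7.83 on day 2 (6.89 to 10.09), and then reached 9.72 on day 7 (9.20 to 10.41) and 10.63 on day 13 (8.84 to 11.06). The edge went the other way, from 9.47 on day 2 (9.15 to 10.51) to 8.18 on day 13 (7.84 to 10.42).

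C1QA and C1QB, which encode 2 of the 3 chains of C1q, started low and stayed up to the end. The skin medians were 6.08 for C1QA (5.31 to 6.40) and 5.71 for C1QB (5.19 to 6.02). Day 1 held their lowest wound medians, 7.06 (6.19 to 7.39) and 7.11 (6.36 to 7.42) in the center and 5.85 (3.80 to 6.58) and 5.65 (3.48 to 6.34) at the edge, and the edge samples of that day overlapped with skin. On day 13 the center medians were 8.37 (highest sample 8.50) and 8.19 (7.57 to 8.31), and on day 21 they were still 7.52 (samples at 7.09, 7.97 and 7.52) and 7.56 (samples at 7.29, 8.07 and 7.56). The 2 genes moved as a unit: over the 150 samples the log2 ratio of C1QA to C1QB counts was 0.12 ± 0.16 (SD), and that of C1QA to C1QC counts -0.07 ± 0.15 (SD).

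APOE, which carries cholesterol and other lipids between cells, had skin samples between 8.88 and 9.80 with a median of 9.15. It was the gene with the widest gap between locations on day 1, when the center median was 10.58 (9.60 to 11.76) and the edge median 7.90 (6.97 to 8.62). The center median then lay between 9.15 and 10.18 on all later days. At the edge the median was highest on day 15 with 10.53 (samples at 9.33, 10.53 and 10.86), above the day 7 value of 9.60 (8.32 to 9.97).

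Against day 0 skin, 8 of the 10 genes were higher through nearly the whole course and GPNMB and APOE were not. Skin samples were the whole excised tissue and wound samples were biopsies of edge or center. Wounding and the way of sampling cannot be told apart in these contrasts. Over 10 genes and 14 contrasts (7 rounds at 2 locations), 115 of 140 tests were called, 114 of them higher than skin, where 53.8% of all tests of all genes were called. CD14, MARCO, CD163, MRC1 and CD68 were called higher in all 14 contrasts. CSF1R was called in 13 and missed only the edge of days 15 and 16 (log2 fold change 0.40 ± 0.21, SE, edgeR adjusted p = 0.142), and C1QA and C1QB were called in 13 and missed only the edge of days 1 and 2 (0.24 ± 0.24 with adjusted p = 0.445 and 0.40 ± 0.23 with adjusted p = 0.16).

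In the center 9, 8, 8, 9, 9, 9 and 9 of the 10 genes were called in the successive rounds, beside 65.7%, 66.6%, 69.6%, 67.4%, 63.2%, 61.3% and 50.9% of the 18013 genes tested. At the edge the counts were 7, 8, 8, 8, 8, 7 and 8, beside 42.7%, 50%, 54.7%, 48.1%, 43%, 29.2% and 40.5% of all genes. The background is thus large, since wound and skin differed in many genes of any kind, and the members' counts lay above it in each round at both locations.

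The largest folds other than that of MARCO were those of CD14, CD163 and CD68. CD14 summed per animal had levels of 7.62 to 8.84 in the center of days 1 and 2, with a median of 8.36, against 4.33 to 5.01 in skin, and its largest fold was 15.6 in the center of days 7 and 9 (log2 fold change 3.96 ± 0.30, edgeR adjusted p = 1.61e-19). CD163 was 13.6-fold higher in the center of days 1 and 2 (3.77 ± 0.31, adjusted p = 4.75e-18), and CSF1R 4.59-fold (2.20 ± 0.22, adjusted p = 1.05e-14). The 6 center values of each of these genes lay above all 6 skin values in every round.

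For MARCO a fitted fold change is not printed, because skin held almost no counts. Its share of the counts was 1001 times that of skin in the center of days 1 and 2 (95% interval 429 to 3084, exact and for counting error only) and 465 times at the edge (199 to 1432). In the center the ratio was 282 (121 to 870) on days 11 and 13 and 27.3 (11.4 to 85.6) on days 19 and 21. The edge had ratios of 538 (230 to 1657) on days 3 and 4, 11.1 (4.45 to 35.8) on days 15 and 16 and 14.9 (6.09 to 47.1) on days 19 and 21.

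MRC1, CD68, C1QA and C1QB had their largest folds over skin in the center of days 11 and 13. They were 5.05 for MRC1 (2.34 ± 0.25, edgeR adjusted p = 4.56e-13), 12.4 for CD68 (3.63 ± 0.27, adjusted p = 7.37e-20), 4.52 for C1QA (2.18 ± 0.25, adjusted p = 3.96e-12) and 4.92 for C1QB (2.30 ± 0.24, adjusted p = 2.01e-13). On days 19 and 21 the center was still higher than skin by 1.97 ± 0.25 for C1QA and 2.28 ± 0.24 for C1QB on the log2 scale, while CD14 and CD163 were down to 1.47 ± 0.28 and 1.51 ± 0.28, all called.

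GPNMB was called in 4 of the 14 contrasts, all in the center from days 7 and 9 on. Its log2 fold change over skin was -0.08 ± 0.32 on days 1 and 2, 1.58 ± 0.32 on days 7 and 9, 2.01 ± 0.33 on days 11 and 13 (edgeR adjusted p = 1.71e-07), 1.33 ± 0.32 on days 15 and 16 and 1.20 ± 0.32 on days 19 and 21. The last of these calls was lost without animal 1324 (0.76, adjusted p = 0.0639). APOE was called in 2 contrasts with opposite signs, higher in the center of days 1 and 2 (1.23 ± 0.32, adjusted p = 0.000571) and lower at the edge of the same days (-0.91 ± 0.32, adjusted p = 0.0166), the only lower call against skin among the 10 genes. The edge call was lost without animal 1323 (adjusted p = 0.0571) or 1327 (adjusted p = 0.0848), and with the animal as block APOE was also called at the edge of days 5 and 6 (-0.64, adjusted p = 0.043).

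The late edge calls leaned on single animals. On days 15 and 16 CD14 (0.76 ± 0.27, edgeR adjusted p = 0.0271), CD163 (0.92 ± 0.28, adjusted p = 0.00879) and MRC1 (0.77 ± 0.24, adjusted p = 0.0116) were not called without animal 1328 (adjusted p = 0.149, 0.130 and 0.108), nor CD14 without animal 1325 (adjusted p = 0.0896). CD14 on days 19 and 21 (0.91 ± 0.27, adjusted p = 0.00533) was not called without animal 1326 (adjusted p = 0.067), and without that animal CSF1R was called at the edge of days 15 and 16 (0.58, adjusted p = 0.0405).

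The sampling of edge and center asks how the healing rim differs from the open wound bed. All calls among the 10 genes went one way, with less at the edge. Of 139 tests (MARCO could not be tested on day 21), 51 were called lower at the edge and 0 higher, where over the 14 days 12.5% of all gene tests were called higher and 11% lower. CD14, CD163 and CSF1R were called on 8 days each, CD68 on 7, MRC1, C1QB and APOE on 4, C1QA and GPNMB on 3, and MARCO on 2. Which days these were differed by gene, with APOE on days 1, 2, 4 and 5, the C1q chains on days 1, 2, 5 and 13, and CD14, CD163, CSF1R and CD68 mainly from day 7 to day 16. The locations also differed in epidermal transcripts. The summed level of 5 keratinocyte genes had edge and center medians of 25844 and 102 CPM on days 7 and 9. They were 36596 and 192 CPM on days 11 and 13 and 32580 and 32111 CPM on days 19 and 21. The part of this difference in the lower edge levels was not tested.

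By day, 5 genes were called on day 1 beside 46.6% of all genes tested, 3 on day 2 beside 35.5%, 3 on day 4 beside 27.8%, 6 on day 5 beside 37.1% and 1 on day 6 beside 14.2%. The count was 4 on day 7 beside 37.4%, 5 on day 9 beside 31.6%, 6 on day 11 beside 43.4%, 8 on day 13 beside 28.4%, 6 on day 15 beside 17.4% and 4 on day 16 beside 10.1%. The share of the 10 genes was thus near that of all genes on days 1, 2, 4, 6 and 7. It was above it on days 5, 9, 11, 13, 15 and 16, a difference that was not tested, and 6 of the 8 calls of day 13 were lost with an animal's wounds summed. On day 3 no member was called by edgeR, beside 0% of all genes (1667 of all genes and 0 of the 10 were below an unadjusted p of 0.05), and by DESeq2 1 of all genes and 0 of the 10. Center 4 and edge 6 of that day are among the samples that stand apart. On days 3 and 4 the keratinocyte sum ranged from 33.2 to 40013 CPM at the edge (median 35587) and from 7.60 to 23191 CPM in the center (median 141). A day without calls does not show that the locations were alike. No member was called on day 19 (0% of all genes, with 2 of the 10 below an unadjusted 0.05 and 0 by DESeq2) or on day 21 (0.0684% of all genes, with 4 of 9 below an unadjusted 0.05, and C1QA and C1QB by DESeq2).

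**Figure D2:**
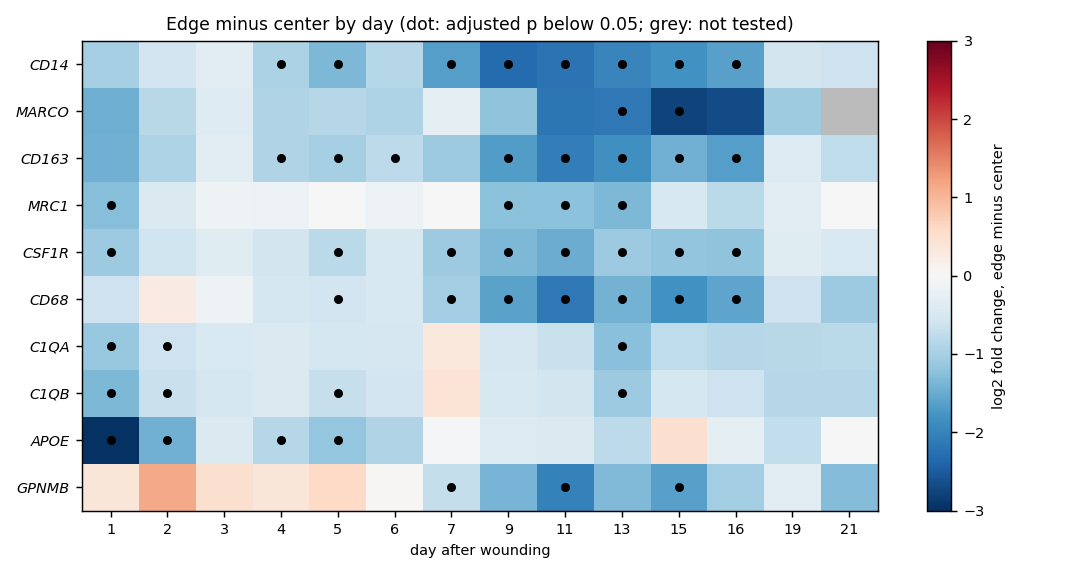
Log2 fold change of edge minus center for the 10 genes (rows) on the 14 days (columns), with blue for lower and red for higher at the edge, dots for an adjusted p below 0.05 and grey where a gene was not tested. The 51 dots are all on blue fields, and GPNMB is the row that is red on days 1 to 6 and blue from day 7 on.

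The fitted gap was widest on days 9 to 13 for CD14, CD163, MRC1 and CSF1R. On day 9 the edge samples of CD14 lay between 5.57 and 6.59 with a median of 6.07 and the center samples between 8.13 and 8.77 with a median of 8.34, so that the groups did not overlap (log2 fold change -2.31 ± 0.19, edgeR adjusted p = 2.2e-06). CD163 differed by -2.09 ± 0.42 on day 11 (adjusted p = 0.00195), with edge samples from 4.87 to 7.03 and center samples from 6.93 to 9.11 that overlapped. CSF1R differed by -1.49 ± 0.23 on day 11 (adjusted p = 0.000392), with edge samples from 6.39 to 8.02 and center samples from 8.52 to 9.20. MRC1 differed most clearly on day 9 (-1.22 ± 0.14, adjusted p = 2.9e-05), between 5.41 and 6.27 at the edge and between 6.85 and 7.38 in the center.

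CD68 had its widest gap on day 11, when edge samples lay between 4.45 and 5.83 and center samples between 7.01 and 7.78 (-2.13 ± 0.24, edgeR adjusted p = 6.15e-05). On day 15 its 3 edge samples were at 4.49, 4.64 and 4.88 and its 3 center samples at 6.62, 6.02 and 6.46 (-1.83 ± 0.18, adjusted p = 0.0165), and on day 16 at 4.32, 4.93 and 4.74 against 6.64, 5.94 and 6.02 (-1.57 ± 0.25, adjusted p = 0.0251). On day 21 the edge samples were at 4.80, 4.83 and 4.86 and the center samples at 5.18, 6.76 and 5.14, without overlap, and this difference was not called (-1.09 ± 0.43, adjusted p = 0.529). CD14 on day 15 had edge samples at 4.83, 5.44 and 5.57 and center samples at 6.63, 6.39 and 7.72 (-1.83 ± 0.38, adjusted p = 0.0295). The 10 calls of days 15 and 16 rest on 3 animals a day. Without animal 1323 on day 15 and 1326 on day 16, 5 of them were kept and 1 gained, and none was kept without animals 1324 and 1327 or without animals 1325 and 1328.

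Within single wounds most of these genes were usually lower at the edge. In all 30 wounds of days 7 to 16 the edge sample lay below the center sample of the same wound for CD14 (median difference -1.86 on the log2(1 + CPM) scale), CD163 (-1.68), CD68 (-1.51) and CSF1R (-1.27). MRC1 was lower at the edge in 27 of these wounds, MARCO in 25, C1QA and C1QB in 23 and APOE in 22. In the 36 wounds of days 1 to 6 the share was smaller for CD14 (31), CD163 (30), CSF1R (29) and CD68 (26), with median differences between -0.80 and -0.36.

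MARCO had few counts at late times, so that its gap was large but loosely measured. On day 15 its edge samples held 7, 10 and 6 counts and its center samples 15, 46 and 91 (-2.79 ± 0.66, edgeR adjusted p = 0.0385), a call that was lost with the wound as block (adjusted p = 0.0566). On day 13 it differed by -2.14 ± 0.64 (adjusted p = 0.0241). With the wound as block MARCO was also called on days 1, 4, 5, 11 and 16 (log2 fold changes -1.85, -0.96, -0.97, -1.64 and -2.56).

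The C1q chains were lower at the edge at the start and again on day 13. On day 1 C1QB had edge samples between 3.48 and 6.34 and center samples between 6.36 and 7.42 (-1.34 ± 0.40, edgeR adjusted p = 0.0153), and C1QA differed by -1.14 ± 0.38 (adjusted p = 0.0267). On day 13 the gap was -1.25 ± 0.16 for C1QA (adjusted p = 0.000186) and -1.10 ± 0.18 for C1QB (adjusted p = 0.000838), and no edge sample reached a center sample for either gene. On day 7 both had slightly higher values at the edge, 0.32 for C1QA and 0.42 for C1QB, which were not called.

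The day 1 gap of APOE was the largest fitted log2 fold change among the 139 tests. On day 1 its edge samples lay between 6.97 and 8.62 and its center samples between 9.60 and 11.76, which is 7.84-fold less at the edge (-2.97 ± 0.41, edgeR adjusted p = 0.000231). It was also called on day 2 (-1.43 ± 0.37, adjusted p = 0.00928), day 4 (-0.86 ± 0.28, adjusted p = 0.0339) and day 5 (-1.17 ± 0.31, adjusted p = 0.00893). From day 7 on it was not called on any day, though with the wound as block it was on day 13 (-0.90, adjusted p = 0.0042). A list of 5 adipocyte genes moved with APOE: all 5 were called lower at the edge on days 1 and 2, beside 22.6% and 17.7% of all genes. Their summed level had a median of 6421 CPM (1163 to 14304) in the center and 384 CPM (18.7 to 1517) at the edge of these days, against 456 CPM (81.8 to 1376) in skin. Over the 72 samples of a location APOE correlated with this sum with r = 0.67 in the center and r = 0.76 at the edge, a description over samples that share animals and libraries. The part of fat tissue in the APOE result was not tested.

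GPNMB changed its side over time. In 27 of the 36 wounds of days 1 to 6 the edge sample was higher than the center sample, with a median difference of 0.42 on the log2(1 + CPM) scale, and in 28 of the 30 wounds of days 7 to 16 it was lower, with a median of -1.31. The early difference was not called on any day, with fitted values between 0.03 and 1.14 and the largest on day 2 (1.14 ± 0.49, edgeR adjusted p = 0.0899). It was called on day 5 (0.59 ± 0.25, adjusted p = 0.0766) with the wound as block (0.53, adjusted p = 0.0105) or with the wounds of an animal summed (0.58, adjusted p = 0.0359), and on day 2 by DESeq2 (1.16, adjusted p = 0.036). The late difference was called on day 7 (-0.72 ± 0.25, adjusted p = 0.0372), day 11 (-2.02 ± 0.31, adjusted p = 0.000409) and day 15 (-1.63 ± 0.31, adjusted p = 0.0257), and with the wound as block on day 13 (-1.51, adjusted p = 0.0125). On day 11 the edge samples lay between 8.25 and 9.34 and the center samples between 9.98 and 11.65.

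On the 10 days with 6 samples per location these came from 3 animals, and the p-values then treat wounds of an animal as separate. With the counts of an animal's wounds summed, 42 of the 51 calls were kept, 5 gained and 9 lost. On day 13 CD14 (adjusted p = 0.0578), CD163 (adjusted p = 0.0521), CD68 (adjusted p = 0.0602), CSF1R (adjusted p = 0.0505), MRC1 (adjusted p = 0.0824) and MARCO (adjusted p = 0.145) lost their call. Off that day APOE on day 4 (adjusted p = 0.066), CD68 on day 5 (adjusted p = 0.0786) and GPNMB on day 7 (adjusted p = 0.0533) did. With the wound as block 50 calls were kept and 16 gained, among them CD14 on day 1 (-1.16, adjusted p = 0.0464), CD163 on day 1 (-1.73, adjusted p = 0.0251) and day 7 (-1.23, adjusted p = 0.00678), CSF1R on day 4 (-0.53, adjusted p = 0.0342), MRC1 on day 16 (-0.84, adjusted p = 0.047), C1QA on day 5 (-0.50, adjusted p = 0.0304) and day 15 (-0.79, adjusted p = 0.0377) and C1QB on day 4 (-0.42, adjusted p = 0.0404).

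Which of the genes mark early and which late wounds was asked by comparing days 11 and 13 with days 1 and 2 in the same 6 animals. In the center the genes parted: GPNMB, CD68, C1QA and C1QB rose, MARCO fell, and CD14, CD163, CSF1R, MRC1 and APOE were not called. These 5 calls of 10 are a share near the 44.6% of all genes called. GPNMB had 7.03, 8.72 and 9.78 as lowest, median and highest animal on days 1 and 2 and 9.91, 10.68 and 10.99 on days 11 and 13 (log2 fold change 2.08 ± 0.33, edgeR adjusted p = 2.03e-07). CD68 had 5.48, 6.43 and 6.73 against 7.05, 7.38 and 7.41 (1.27 ± 0.25, adjusted p = 1.74e-05). For both genes every late value lay above every early one and all 6 animals rose.

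C1QA rose by 1.15 ± 0.24 (edgeR adjusted p = 5.51e-05), from 6.86 to 7.51 with a median of 7.21 early to 7.04 to 8.42 with a median of 8.27 late, and C1QB by 1.00 ± 0.23 (adjusted p = 0.000264). Both were higher in 5 of 6 animals, and the groups overlapped. MARCO fell by 1.64 ± 0.54 on the log2 scale (adjusted p = 0.00897), from a median of 5.49 (4.25 to 6.40) to 2.71 (1.37 to 5.10), in 6 of 6 animals. Fitted with only the 12 libraries of this contrast the MARCO change was not called (-1.69, adjusted p = 0.0538).

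The other 5 genes were not called in the center. CD14 had a median of 8.36 early and 8.09 late (0.05 ± 0.27, edgeR adjusted p = 0.893), CD163 8.94 and 8.44 (-0.16 ± 0.28, adjusted p = 0.667), CSF1R 8.93 and 8.77 (-0.01 ± 0.21, adjusted p = 0.967) and MRC1 7.29 and 7.34 (0.40 ± 0.24, adjusted p = 0.169). A missed threshold does not show that a level stayed the same. The level of CSF1R was lower in 6 of 6 animals on the log2(1 + CPM) scale, which is not scaled by TMM, and without TMM the median gene of this contrast moved by -0.27. APOE fell by a value that was not called (-0.57 ± 0.32, adjusted p = 0.14), and was called without TMM (-0.84, adjusted p = 0.0313) and without animal 1328 (-0.85, adjusted p = 0.0368). MRC1 was called without animal 1325 (0.60, adjusted p = 0.037).

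At the edge 7 of the 10 genes were called, beside 31.5% of all genes, and MARCO, CD14, CD163 and CSF1R fell while the C1q chains and APOE rose. MARCO fell by 2.85 ± 0.57 on the log2 scale (edgeR adjusted p = 3.94e-05), from a median of 4.04 (2.94 to 5.69) to 1.41 (0.89 to 2.57), and CD14 fell by 1.32 ± 0.27 (adjusted p = 8.33e-05), from 7.49 (7.20 to 7.65) to 5.63 (5.18 to 6.73), both without overlap. CD163 fell by 1.01 ± 0.28 (adjusted p = 0.00307), from 7.66 (6.74 to 8.02) to 6.13 (5.49 to 7.23), also in 6 of 6 animals. C1QB rose by 0.98 ± 0.23 (adjusted p = 0.000616), from 6.23 (4.63 to 6.76) to 6.87 (6.37 to 7.44), and C1QA by 0.89 ± 0.24 (adjusted p = 0.00251).

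The remaining edge calls were fragile. CSF1R fell by 0.56 ± 0.21 (edgeR adjusted p = 0.0286), in 4 of 6 animals, and was not called by DESeq2 (adjusted p = 0.0593) or without animal 1323 (adjusted p = 0.148), 1325 (adjusted p = 0.109), 1326 (adjusted p = 0.179) or 1328 (adjusted p = 0.164). APOE rose by 0.87 ± 0.32 (adjusted p = 0.0283), in 5 of 6 animals, and was not called without TMM (0.66, adjusted p = 0.109) or without animal 1323 (adjusted p = 0.0576), 1324 (adjusted p = 0.0817), 1325 (adjusted p = 0.0510) or 1328 (adjusted p = 0.0682). CD68 (-0.35 ± 0.25), GPNMB (-0.38 ± 0.32) and MRC1 (-0.19 ± 0.24) were not called, although CD68 was without TMM (-0.58, adjusted p = 0.0495).

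**Figure D3:**
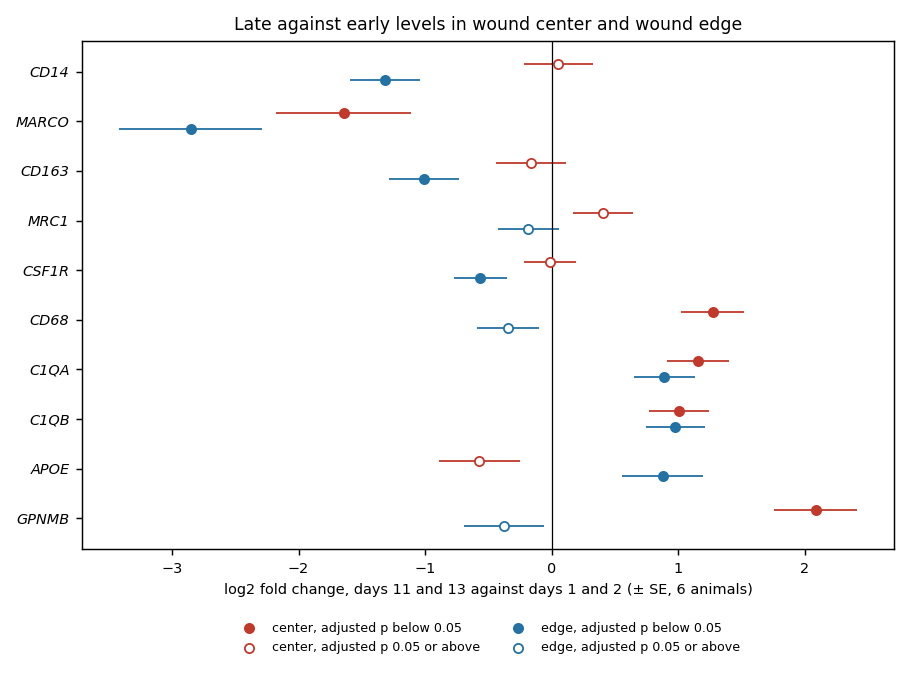
Log2 fold change of days 11 and 13 against days 1 and 2 for the 10 genes in the wound center (red) and at the wound edge (blue), with the standard error as bar and filled points for an adjusted p below 0.05. GPNMB and CD68 lie to the right of 0 in the center and to the left at the edge, while C1QA and C1QB lie near 1 at both locations.

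Whether a gene changed differently at the 2 locations was tested as an interaction, the edge change minus the center change. It was called for 4 of the 10 genes, beside 19.7% of all genes. The difference was -2.46 ± 0.45 for GPNMB (edgeR adjusted p = 4.61e-05), -1.62 ± 0.35 for CD68 (adjusted p = 0.00043) and -1.37 ± 0.38 for CD14 (adjusted p = 0.00641), each of which ended relatively lower at the edge, and 1.45 ± 0.45 for APOE (adjusted p = 0.0152), which ended relatively higher there. The APOE call was lost without animal 1323 (adjusted p = 0.0849) or 1324 (adjusted p = 0.0938). For C1QA (-0.27 ± 0.34, adjusted p = 0.631) and C1QB (-0.03 ± 0.33, adjusted p = 0.967) the change was not shown to differ between locations, nor for CD163 (-0.85 ± 0.39, adjusted p = 0.116), MARCO (-1.21 ± 0.75, adjusted p = 0.264), CSF1R (-0.55 ± 0.29, adjusted p = 0.18) and MRC1 (-0.59 ± 0.34, adjusted p = 0.224).

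The middle round parts this change in time. From days 1 and 2 to days 5 and 6, C1QA (0.73 ± 0.24, edgeR adjusted p = 0.0136) and C1QB (0.76 ± 0.23, adjusted p = 0.00804) rose in the center while MRC1 (-0.68 ± 0.24, adjusted p = 0.0238) and CSF1R (-0.52 ± 0.21, adjusted p = 0.0447) fell. These 4 calls are a share near the 32.7% of all genes called. At the edge C1QA (1.00 ± 0.24, adjusted p = 0.00143) and C1QB (1.03 ± 0.23, adjusted p = 0.000725) were the only calls, a share near the 15.6% of all genes called, and rose in 6 of 6 animals. GPNMB changed by -0.08 ± 0.32 and CD68 by 0.22 ± 0.25 in the center over this time, neither called. Several of the center calls depended on single animals: C1QA was not called without animal 1323 (adjusted p = 0.0770) or 1325 (adjusted p = 0.0621) or without TMM (adjusted p = 0.0510), MRC1 without 1324 (adjusted p = 0.108) or 1327 (adjusted p = 0.0647), and CSF1R without 1324 (adjusted p = 0.155), 1326 (adjusted p = 0.122) or 1327 (adjusted p = 0.258). With the animal as block APOE (-0.78, adjusted p = 0.0227) and MARCO (-1.09, adjusted p = 0.046) were also called in the center.

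From days 5 and 6 to days 11 and 13 the center calls were GPNMB (2.16 ± 0.33, edgeR adjusted p = 6.77e-07), MRC1 (1.08 ± 0.24, adjusted p = 0.000374) and CD68 (1.05 ± 0.25, adjusted p = 0.000662), all higher, a share near the 32.2% of all genes called. GPNMB had been between 8.39 and 8.92 in the 6 animals on days 5 and 6. At the edge CD14 (-0.87 ± 0.27, adjusted p = 0.0135), CD163 (-0.96 ± 0.28, adjusted p = 0.00739) and MARCO (-1.83 ± 0.55, adjusted p = 0.00975) fell, 3 calls and a share near the 23% of all genes called. The CD14 call was lost without animal 1323 (adjusted p = 0.0589) or 1325 (adjusted p = 0.110). CSF1R (0.50 ± 0.21, adjusted p = 0.0516) was called higher in the center with the animal as block (0.52, adjusted p = 0.0335) or without animal 1323 (0.62, adjusted p = 0.0408). So was C1QA (0.42 ± 0.24, adjusted p = 0.171) without animal 1325 (0.66, adjusted p = 0.0469).

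From days 11 and 13 to days 19 and 21 most of these genes fell in the center. There 7 of 10 genes were called and all 7 fell, beside 32.6% of all genes. MARCO fell by 3.18 ± 0.60 on the log2 scale, to a median of 0.95 (0.14 to 1.94), CD14 by 2.10 ± 0.28, to 6.05 (5.09 to 6.39), and CD163 by 2.09 ± 0.29, to 6.25 (5.86 to 6.73). MRC1 fell by 1.41 ± 0.24, CD68 by 1.35 ± 0.25 and CSF1R by 1.16 ± 0.21, each in 6 of 6 animals. GPNMB fell by 0.80 ± 0.32 (edgeR adjusted p = 0.0439), but not without animal 1323, 1325, 1326, 1327 or 1328 (adjusted p between 0.0568 and 0.248). C1QA (-0.20 ± 0.24, adjusted p = 0.556), C1QB (-0.02 ± 0.23, adjusted p = 0.974) and APOE (-0.43 ± 0.32, adjusted p = 0.318) were not called, and the medians of C1QA and C1QB on days 19 and 21 were 7.74 and 7.78. The summed level of 5 keratinocyte genes in the center moved over the same rounds from a median of 192 CPM (43.8 to 6095) to 32111 CPM (6582 to 40198), and its part in the fall of the 7 genes was not tested.

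At the edge 0 of the 10 genes were called over these last rounds by edgeR, beside 5.68% of all genes, with 2 below an unadjusted p of 0.05 and MARCO called by DESeq2 (-1.76, adjusted p = 0.0296). With the animal as block MARCO was called as well (-1.58, adjusted p = 0.0453). Without animal 1326, whose edge sample on day 19 held the highest CD14 (6.15), CD163 (6.21), CSF1R (7.74), CD68 (5.92) and GPNMB (9.55) levels of that group, CD14 (-0.87, adjusted p = 0.0387), CD163 (-0.96, adjusted p = 0.0318) and MARCO (-2.03, adjusted p = 0.0438) were called.

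**Figure D4:**
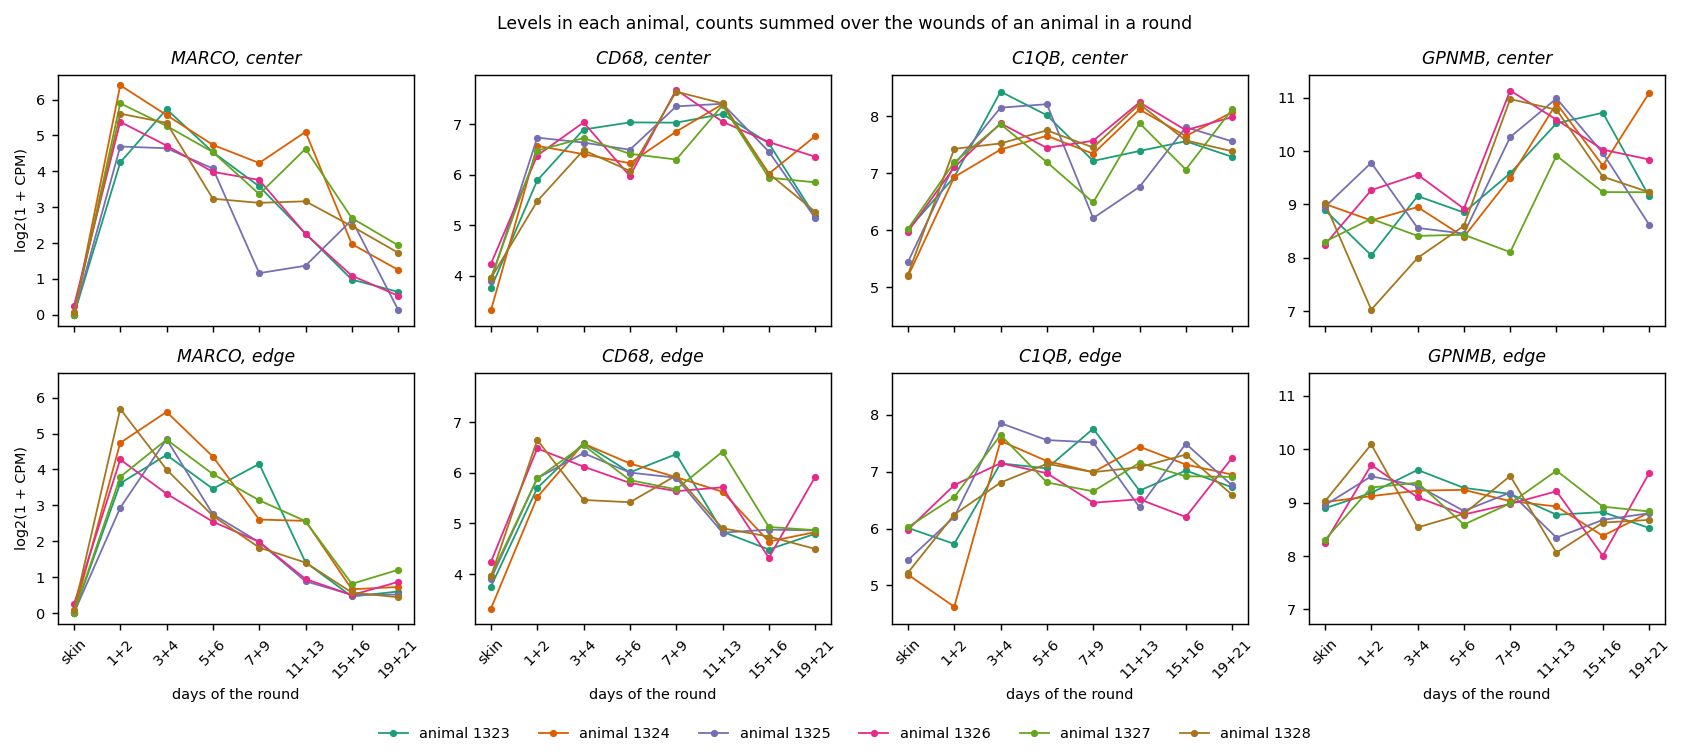
Level as log2(1 + CPM) of MARCO, CD68, C1QB and GPNMB in skin and the 7 rounds, with 1 line per animal, in the center (upper panels) and at the edge (lower panels). In the center all 6 animals have their highest MARCO level in the rounds of days 1 to 4 and all 6 rise in GPNMB from days 5 and 6 to days 11 and 13, while C1QB is still between 7.29 and 8.13 on days 19 and 21.

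The 10 genes fell into groups by their course over the 29 states, which is a description because the states share animals and the genes share libraries. The state means of CD14, CD163 and CSF1R ran in parallel, with r = 0.97 for CD14 and CD163 and r = 0.96 for CD14 and CSF1R, and C1QA and C1QB with r = 0.99. CD14 and C1QA had r = -0.29 over the 14 center states and r = 0.03 over the 14 edge states. MARCO and GPNMB ran against each other in the center (r = -0.69) and together at the edge (r = 0.73), and APOE and GPNMB had r = -0.03 over all states.

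Among 14081 other named genes with a mean of at least 1 CPM, those with the most similar course over the 29 states were PIK3R5 (r = 0.988) for CD14, and INPP5D (0.980) and MPP1 (0.971) for CD163. For CSF1R they were ARRB2 and IL10RA, the receptor of interleukin 10 (both 0.976), for CD68 the integrin ITGAX (0.975) and the lysosomal protease CTSS (0.973), and for MRC1 the scavenger receptor STAB1 (0.917) and PIK3CG (0.910). C1QC led for C1QA (0.988) and C1QB (0.993), followed by the transporter SLCO2B1 (0.881 and 0.907). MARCO was closest to TMED5 (0.953) and the platelet chemokine PPBP (0.952). GPNMB was closest to the chemokine receptor CXCR6 (0.907) and PLA2G2D (0.886), and APOE to USHBP1 (0.876) and TMEM150C (0.867).

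Other genes of macrophages were read from 4 lists. Of 16 genes expressed broadly in myeloid cells, all 16 were above skin at both locations on days 1 and 2 and on days 11 and 13. This stands beside 33.6% and 32.6% of all genes called higher in the center and 25.1% and 23.8% at the edge. From days 1 and 2 to days 11 and 13, 2 of the 16 rose and 2 fell in the center, where 23.8% of all genes rose and 20.8% fell (median log2 fold change -0.06, against 0.03 over all genes). At the edge 0 rose and 9 fell, where 14% of all genes rose and 17.5% fell (median -0.72, against -0.06). The integrin ITGAM fell by 1.28 ± 0.31 and ADGRE1, the gene of the F4/80 antigen, by 0.90 ± 0.38 in the center, while the actin binding LCP1 (0.84 ± 0.28) and the lysosomal LAPTM5 (0.69 ± 0.19) rose. From days 11 and 13 to days 19 and 21, 15 of the 16 fell in the center, beside 17.2% of all genes that fell (median -1.41, against -0.02). Against the center, 16 of 16 were lower at the edge on day 9, beside 14.3% of all genes called lower that day, and 15 were on days 11 and 13, beside 22.9% and 11.8%. On days 3, 19 and 21 the count was 0, as was the share of all genes called lower.

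Of 24 detected genes of lysosomes and lipid handling, 12 rose and 3 fell in the center from days 1 and 2 to days 11 and 13 (median 0.56, against 0.03 over all genes), beside 44.6% of all genes called. At the edge 4 rose and 5 fell (median 0.07, against -0.06), a share near the 31.5% of all genes called. MMP12, the macrophage elastase, was at 0.87 ± 0.82 early and 7.79 ± 1.07 late in the center (SD, 6 animals, log2(1 + CPM); log2 fold change 8.19 ± 1.01, edgeR adjusted p = 2.01e-10) and at 4.22 ± 0.16 and 3.94 ± 1.46 at the edge (0.60 ± 0.74, adjusted p = 0.594). ATP6V0D2, a subunit of the vacuolar proton pump, rose by 5.42 ± 0.91 in the center and 4.38 ± 0.87 at the edge. The fatty acid uptake genes CD36 (-2.54 ± 0.76) and LPL (-2.08 ± 0.56), which adipocytes also express, fell in the center. The interaction was called for 9 of the 24 genes, 1 relatively higher and 8 relatively lower at the edge, beside 8.48% and 11.3% of all genes.

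Of 19 detected monocyte and inflammatory genes, 18 were above skin in the center of days 1 and 2, where 33.6% of all genes were called higher. In the center 5 rose and 4 fell to days 11 and 13 (median -0.31), a share near the 44.6% of all genes called, and at the edge 3 rose and 7 fell (median -0.88), beside 31.5%. The cytokine IL6 (-2.23 ± 0.64) fell in the center, and the calcium binding S100A8 (2.69 ± 0.92, edgeR adjusted p = 0.0127) and S100A9 (2.17 ± 0.90, adjusted p = 0.0427), which keratinocytes of healing epidermis also make, rose. Of 17 detected genes of resident and perivascular macrophages, 3 rose and 2 fell in the center (median -0.08), a share below the 44.6% of all genes called, and 1 rose and 6 fell at the edge (median -0.50), beside 31.5%. IGF1 (-2.85 ± 0.38) and the lectin CD209 (-2.08 ± 0.44) fell in the center, and the complement receptor VSIG4 (1.20 ± 0.29) and C1QC (1.06 ± 0.24) rose.

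The ligands of CSF1R went in opposite directions in the center. CSF1 fell from 7.91 ± 0.56 to 6.20 ± 0.40 (SD, 6 animals, log2(1 + CPM)), a log2 fold change of -1.49 ± 0.30 (edgeR adjusted p = 3.5e-05), and IL34 rose from 3.87 ± 0.46 to 5.02 ± 0.20 (1.42 ± 0.22, adjusted p = 1.07e-07), against 5.52 ± 0.21 and 4.81 ± 0.27 in skin. At the edge CSF1 fell by 1.07 ± 0.30 (adjusted p = 0.00348), and IL34 changed by 0.35 ± 0.22 (adjusted p = 0.232). CSF2, which acts through another receptor, was near the detection limit with 0.25 ± 0.16 early and 1.02 ± 0.72 late in the center (2.88 ± 0.79, adjusted p = 0.00189).

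Markers of other cells that a biopsy can hold were set beside the results. The summed level of 5 neutrophil genes had a median of 16.98 CPM in skin (8.73 to 21.9), 202 CPM in the center of days 1 and 2 (67.8 to 573), 227 CPM on days 7 and 9 (98.1 to 588), 136 CPM on days 11 and 13 (30.9 to 398) and 39.3 CPM on days 19 and 21 (24.3 to 69.3). At the edge it was 101 CPM (31.0 to 289) on days 1 and 2, 60.3 CPM (36.4 to 251) on days 7 and 9 and 42.3 CPM (30.5 to 112) on days 11 and 13. Over the 72 samples of a location CD14, which neutrophils also express, correlated with this sum with r = 0.82 in the center and 0.81 at the edge, and their part in the CD14 result was not tested. In the same order r was 0.60 and 0.68 for CD163, 0.64 and 0.67 for CSF1R, 0.46 and 0.76 for MARCO and 0.36 and 0.69 for CD68. MRC1 had 0.32 and 0.29, GPNMB -0.13 and 0.38, and C1QA, C1QB and APOE negative values at both locations. With the summed dendritic cell genes CD14 had r = 0.61 and 0.80. The 5 melanocyte genes summed to 2.35 CPM in skin (1.47 to 2.56), 0.805 CPM in the center of days 1 and 2 (0.380 to 2.09) and 6.07 CPM on days 11 and 13 (3.35 to 16.4), with TYR, which encodes the pigment enzyme tyrosinase, at 0 in every group. GPNMB itself had a median of 1645 CPM in the center of days 11 and 13 and 485 CPM in skin. It correlated with the melanocyte sum with r = 0.59 in the center and 0.21 at the edge. Fibroblast genes rose in the center over the same time, from a summed median of 10760 CPM to 80162 CPM, and 5 lymphatic endothelial genes from 126 CPM to 261 CPM, whose sum correlated with GPNMB with r = 0.62 in the center and 0.09 at the edge. The part of these cells in the GPNMB result was not tested. Of the other lists, 6 dendritic cell genes had summed medians of 56.6 CPM and 66.1 CPM in the center of the same rounds, against 21.3 CPM in skin. The 5 keratinocyte genes had 116 CPM in the center and 42711 CPM at the edge of days 1 and 2, against 40606 CPM in skin. The 5 skeletal muscle genes had 10.5 CPM in the center of days 1 and 2, with a highest sample of 67643 CPM.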

How the data were processed

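Poly(A) RNA of 150 samples was sequenced as paired reads. The 6 samples of day 0 skin were the whole excised tissue, and the 72 wound edge and 72 wound center samples were biopsies. The authors deposited a table of raw read counts per gene and a table of FPKM values, and the aligner, counter and genome build are not given in the sources used here. Columns were matched to samples by the library names in the labels. The counts were used for all tests, and the deposited FPKM values only to order genes by level. Symbols came from the name column, and for rows without a name from the gene entry of the matched protein.

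Counts were tested with edgeR 4.0.16 in R 4.3.3 (TMM scaling, a minimum count of 10 by filterByExpr, quasi-likelihood test, Benjamini-Hochberg adjustment over all genes tested, threshold 0.05) after the code was tested on simulated data. Edge and center were compared within each day. For skin, time and interaction contrasts the counts were summed per animal, location and round, which gave 90 libraries of 14191248 to 44191689 counts and 18013 tested genes. The standard errors of the fold changes were derived from the test, as the size of the log2 fold change over the square root of its F statistic. Levels are log2 of CPM with a pseudocount of 1. Intervals for counts cover counting error only.

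Alternatives were DESeq2 1.42.0, other scalings, no filter, a wound or animal block, other replicate units, fewer samples and each animal left out. The replicate block rests on the labels, which give the wound and animal of each sample. Deviations from the group means of edge and center of a wound correlated with a mean r of 0.223 in single samples, which was positive in 69 of 72 wounds. In the libraries summed per animal, location and round, the mean r was 0.135 within an animal and -0.0263 between animals in different groups. The pairs within an animal include edge and center of the same round, and the summed values are not the same measure as the 0.223.

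The 10 genes and all gene lists (monocyte and inflammatory, lysosome and lipid handling, resident and perivascular, pan-myeloid, macrophage growth factors, and 8 lists of other cell types) were chosen with earlier results of these data known. The genes of these lists that the text names are those with the largest changes in the center over time that passed the threshold, up to 2 in each direction, and the growth factors, and the genes with a like course are the 2 with the highest Pearson r. Some genes that these rules select are not reported here.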

Additional observations from a re-analysis of the deposited data

Results flagged for a closer look

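Within 210 groups of 6 samples (10 genes, 21 states) 19 held a lowest or highest sample whose distance to its neighbour exceeded Dixon's limit for a share of the group's range, where chance gives about 1 in 20, or 10.5. All levels here are log2(1 + CPM). On day 6 center sample 4 was high for CD14 (8.89, others 6.87 to 7.54) and CD68 (6.88, others 5.67 to 6.09), and edge sample 5 was low for CD68 (4.75, others 5.54 to 6.00). On day 13 sample 4 of both locations was high for CSF1R, with 9.12 in the center (others 8.26 to 8.55) and 8.55 at the edge (others 6.76 to 7.36).

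Both C1q chains stood out in the same sample on 3 days. On day 9 center sample 3 had 4.08 for C1QA (others 7.19 to 7.93) and 3.70 for C1QB (others 7.16 to 7.78). On day 7 center sample 6 had 5.67 for C1QA (others 6.98 to 7.54) and 5.38 for C1QB (others 6.83 to 7.39), and 8.72 for APOE (others 9.42 to 9.77). On day 3 center sample 4, one of the 7 samples that stand apart, had 6.77 for C1QA (others 7.98 to 8.49) and 6.58 for C1QB (others 7.91 to 8.61). On day 13 center sample 3 had 7.57 for C1QB (others 8.13 to 8.31).

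MARCO was high in skin sample 4 (0.25, others 0 to 0.08) and day 7 edge sample 2 (4.95, others 1.74 to 2.84) and low in day 5 center sample 6 (3.07, others 4.36 to 5.11). MRC1 was low in day 1 edge sample 3 (3.98, others 6.05 to 6.92) and high in day 3 edge sample 6 (8.33, others 6.57 to 7.17), which also stands apart. GPNMB was high in day 5 center sample 2 (9.16, others 8.29 to 8.58).

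The change from days 1 and 2 to days 11 and 13 differed between edge and center, by the interaction test, for GPNMB (-2.46), CD68 (-1.62), CD14 (-1.37) and APOE (1.45), as log2 fold changes of the edge minus those of the center.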

How the results depend on the processing

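No fold change of the 10 genes that the alternatives were set beside changed its sign. Of 560 such fold changes 531 kept their side of the threshold, 25 fell below it and 4 passed it. These are a part of all fold changes fitted by the alternatives, and more calls changed over the full runs. Among the edge against center calls, DESeq2 gained 17, and all 150 samples in 1 fit gained 8 and lost 12. The 51 edge against center calls were 47 to 68 over the alternatives: DESeq2 gave 68, all 51 among them, the wound as replicate block 66 and all 150 samples in 1 fit 47, of which 39 were shared. Leaving out 1 sample per location on days 15 to 21 gave 0 to 6 calls in place of 10, with fewer samples by construction. Against skin the calls were 108 to 117 beside 115 (116 with the animal as replicate block), over time 27 to 35 beside 31 (35 with the block) and for the interaction 3 or 4 beside 4 (4 with the block). The block changed no other call than those given with the results. The runs of the interaction without each animal and with wounds not summed were chosen after seeing the data. Without TMM the median gene moved by -0.27 to -0.04 over time, -0.25 to 0.15 against skin and 0.05 for the interaction on the log2 scale. The day of the highest median moved in 10 of 100 cases, as for MRC1 and CSF1R in the center, which peaked on day 11 by FPKM. On days 19 and 21 at most 10 of all genes were called, against 2542 and 1451 on days 15 and 16 with as many samples, and the cause was not tested.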
